A study of Homo sapiens with 15 samples.

Results

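The 10 SR splicing factors described here are SRSF1 to SRSF8, SRSF10 and SRSF11, taken by symbol from a table of 62754 genes, and all 10 were measured well enough to be tested among 19781 genes. The RNA was from NCI-H69, a long-used human line of the classic type of small cell lung cancer, treated with the solvent DMSO, with CS2 or with FB23-2, with 3 libraries in each group. The series names both compounds as inhibitors of FTO, which erases m6A, a methyl mark on RNA. CS2 is another name of brequinar, which also blocks pyrimidine synthesis. The labels used here hold neither dose nor duration, so the compounds are set side by side as labelled, in 1 cell line. The libraries of the line H82 were not analysed here.

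SR proteins bind short RNA sequences through RNA recognition motifs and contact the splicing machinery through a tail rich in arginine and serine. They help to define exons, and several also escort mRNA out of the nucleus or affect its translation. Their own genes are known for poison exons, segments whose inclusion brings a premature stop codon and sends the transcript to nonsense-mediated decay, a loop by which SR proteins limit their own amount. The nuclear m6A reader YTHDC1 is known to bind SRSF3 and SRSF10, which links the family to m6A. The counts used here are per gene, so productive and poison-exon transcripts were added together, and no splice pattern was measured.

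Total counts ranged from 29916267 to 45022633 per library, at which 3 counts correspond to between 0.0666 and 0.101 CPM (read counts scaled to a common library size, by TMM). The lowest count of any member in any library was 1475, for SRSF8. All 6 markers of neuroendocrine small cell lung cancer exceeded a mean of 1 CPM in every group, and their summed level lay between 2420 and 2640 CPM with DMSO, 1890 and 1990 with CS2 and 1920 and 2080 with FB23-2. Markers of endothelium summed to at most 2.46 CPM in any library. Of 4 fibroblast markers, only 1 exceeded a mean of 1 CPM in each group, and DCN was at 0. Of 4 squamous and airway markers, 2 did so with DMSO and 1 with either compound. Fibroblast markers summed to 52.6 to 54.3 CPM with DMSO, 32.9 to 39.6 with CS2 and 10.5 to 15.3 with FB23-2. Squamous and airway markers summed to 23.6 to 30, 9.76 to 13.3 and 1.7 to 1.87 CPM in the same order. The part of these shifts in the results below was not tested. FB23-2 replicate 2 stood apart, with 10.97% of counts from the mitochondrial genome against 6.83% and 6.91% in the other FB23-2 libraries, and 5.18% to 9.05% elsewhere.

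With CS2, 7 of the 10 members were lower than with DMSO and 0 were higher at an adjusted p under 0.05 by edgeR's quasi-likelihood test, where 25.3% of all tested genes were lower and 24.3% higher. With FB23-2, 8 members were lower and 1 was higher, where 26.7% of all tested genes were lower and 25.4% higher. With a correction of each library for gene GC content and gene span, the FB23-2 counts were 9 lower and 0 higher. The median log2 fold change of the members was -0.28 with CS2 and -0.55 with FB23-2, while that of all genes tested was -0.002 and -0.001. Summed over the 10 members, the level was 2423 ± 68.5 CPM (SD, n = 3) with DMSO, 1919 ± 68.4 with CS2 and 1770 ± 135 with FB23-2. Both comparisons use the same DMSO libraries. In bulk RNA, less transcript in every cell and fewer cells that hold it cannot be told apart.

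**Figure D1:**
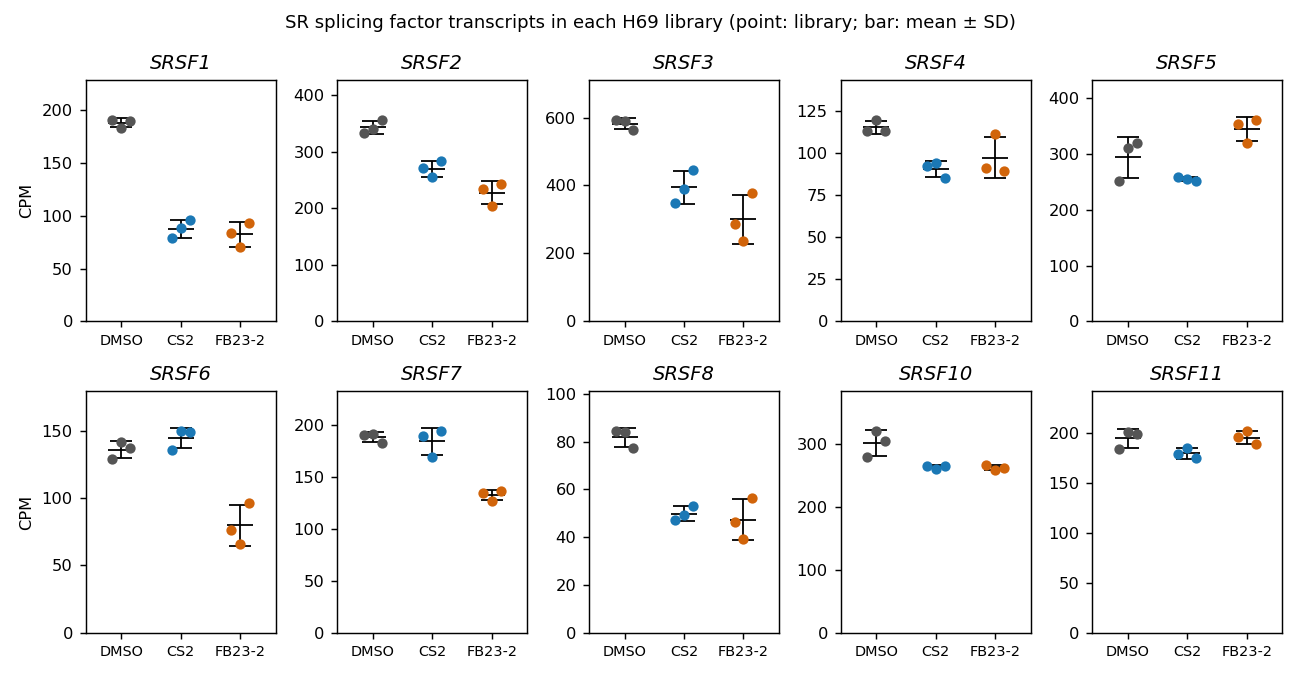
Level of each SR splicing factor (CPM, axes from 0) in the 3 libraries of each group, with the mean ± SD. SRSF1, SRSF2, SRSF3, SRSF4, SRSF8 and SRSF10 lay below every DMSO library with both compounds. The share of all tested genes that separate in this way was not counted. SRSF6 and SRSF7 lay below DMSO with FB23-2 and overlapped it with CS2, and SRSF5 was above DMSO with FB23-2.

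The members differed in level among themselves. Per kilobase of merged exons, SRSF2, a factor of nuclear speckles that promotes exon inclusion, was highest with DMSO at 114 ± 3.85 CPM per kb, followed by SRSF3 (81.7 ± 2.27), the smallest SR protein. SRSF1 (56.2 ± 1.29) and SRSF5 (54.9 ± 6.84) came next and did not differ beyond their spread, since the SRSF5 libraries ran from 47.1 to 59.6. SRSF7 (46.6 ± 1.14) also overlapped the lowest SRSF5 library. SRSF6 (29.6 ± 1.38) and SRSF10 (29.3 ± 2) did not differ beyond their spread, and SRSF11 (23 ± 1.15), SRSF8 (20.3 ± 0.99) and SRSF4 (13.0 ± 0.43) closed the order. The order depends on the length used: per kilobase of the longest transcript SRSF3 led at 138 CPM per kb, ahead of SRSF2 at 119. Other genes overlap 60.7% of the exon bases of SRSF1 and 36.7% of those of SRSF2. How reads there were counted is not known, so the levels and places of these members are uncertain. With FB23-2 the order changed, as SRSF5 (64.4 ± 4.05) moved above SRSF3 (42.2 ± 10) and SRSF1 (24.6 ± 3.51) below SRSF7 (32.8 ± 1.29). With CS2, SRSF1 (26.25 ± 2.52) likewise lay below SRSF7 (45.52 ± 3.16), and also below SRSF6 (31.5 ± 1.68).

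**Figure D2:**
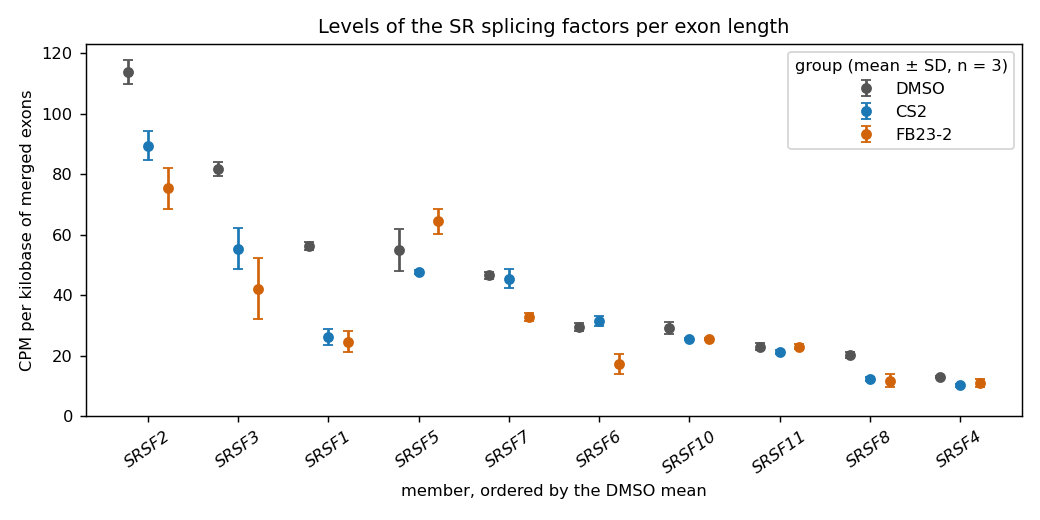
Mean ± SD (n = 3) of each member's level in CPM per kilobase of merged exons, ordered by the DMSO mean, for the 3 groups. SRSF2 and SRSF3 were highest with DMSO, and with both compounds SRSF1 stood beside SRSF10, far below its DMSO place. The levels of SRSF1 and SRSF2 are uncertain, since other genes overlap their exons.

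Promoters are shown for SRSF1 and SRSF3, which fell with both compounds, and for SRSF6, which fell with FB23-2. Other members that fell, such as SRSF8, are not shown, and a role of promoters in the changes was not tested. The promoters are given as the bases that precede both the RefSeq and the GENCODE start. They are from RefSeq on GRCh38.p14, written 5′ to 3′ on the strand of the gene. They lie at chr17:58007347-58007496 (minus strand, SRSF1), chr6:36594112-36594352 (plus strand, SRSF3) and chr20:43457646-43457895 (plus strand, SRSF6). Capitals mark the motifs searched on both strands. These were CACGTG for the E-box, then CCAAT for the box of that name, then GGGCGG for the GC box, then TATAAA for the TATA box, and TGACG for the core of a cAMP response element.
SRSF1: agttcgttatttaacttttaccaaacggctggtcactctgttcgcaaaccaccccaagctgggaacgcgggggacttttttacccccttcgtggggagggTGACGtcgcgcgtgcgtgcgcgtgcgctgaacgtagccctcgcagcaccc
SRSF3: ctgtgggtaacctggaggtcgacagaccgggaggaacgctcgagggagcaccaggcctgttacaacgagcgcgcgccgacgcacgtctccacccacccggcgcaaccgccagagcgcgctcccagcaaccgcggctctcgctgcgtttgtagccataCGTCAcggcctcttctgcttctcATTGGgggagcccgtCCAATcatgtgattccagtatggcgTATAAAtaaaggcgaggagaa
SRSF6: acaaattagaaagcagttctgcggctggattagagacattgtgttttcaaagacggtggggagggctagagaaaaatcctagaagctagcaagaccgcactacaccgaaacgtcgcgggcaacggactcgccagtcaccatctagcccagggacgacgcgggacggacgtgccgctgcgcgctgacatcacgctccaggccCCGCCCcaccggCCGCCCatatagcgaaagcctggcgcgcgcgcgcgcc

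SRSF1, the prototype SR protein and a known proto-oncogene (ENSG00000136450, chromosome 17, 58003360 to 58007346, minus strand, GRCh38), had the largest change of the family with each compound. Its level was 190.4, 182.7 and 189.8 CPM in the DMSO libraries, 79.0, 88.2 and 95.8 with CS2 and 83.6, 69.9 and 93.2 with FB23-2. Every treated library lay at about the same low level, and none overlapped DMSO. The decrease was 2.14-fold with CS2 (log2 fold change -1.10 ± 0.10 SE, adjusted p = 1.42e-08 by edgeR) and 2.28-fold with FB23-2 (-1.19 ± 0.10, adjusted p = 4.25e-09). The difference between the compounds was not called for SRSF1 (log2 difference -0.09, 95% interval -0.28 to 0.09). Its counts carry an uncertainty, as 60.7% of its exon bases overlap other annotated genes. ENSG00000266086, which overlaps 56.6% on the same strand, had 0 counts in all 9 libraries, and ENSG00000279069, which overlaps 13.2% on the opposite strand, had group means between 3.79 and 8.82 CPM and was itself lower with both compounds (log2 fold change -1.22 ± 0.18 and -0.45 ± 0.17, adjusted p = 1.14e-05 and 0.0326).

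SRSF3 (ENSG00000112081, chromosome 6, 36594353 to 36605600, plus strand), known for coupling splicing to mRNA export and 3′ end choice, held the largest share of the family's counts with DMSO. It measured 592.6, 588.3 and 562.7 CPM with DMSO, 349.1, 390.1 and 444.3 with CS2 and 286.8, 236.9 and 377.7 with FB23-2. The treated libraries were scattered but all lay below the lowest DMSO library. SRSF3 fell 1.47-fold with CS2 (log2 fold change -0.56 ± 0.14, adjusted p = 0.00412) and 1.93-fold with FB23-2 (-0.95 ± 0.14, adjusted p = 6.88e-05). Its share of the family total went from 24.0% ± 1.1 with DMSO to 20.5% ± 1.8 with CS2 and 16.8% ± 2.7 with FB23-2. Without FB23-2 replicate 2, its lowest library, the change with FB23-2 was -0.80 and still passed (adjusted p = 2.16e-05).

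SRSF2 (ENSG00000161547, chromosome 17, 76734115 to 76737374, minus strand) fell less. Its libraries stood at 333.0, 340.8 and 355.9 CPM with DMSO, 270.7, 254.9 and 283.6 with CS2 and 234.2, 204.6 and 243.5 with FB23-2, so that the 3 groups did not overlap and formed a descending order. The log2 fold change was -0.35 ± 0.08 with CS2 (adjusted p = 8.8e-04) and -0.59 ± 0.08 with FB23-2 (adjusted p = 2.56e-06). MFSD11, a gene on the opposite strand, overlaps 36.7% of the exon bases of SRSF2, and it was lower with CS2 (-0.85 ± 0.10, adjusted p = 1.09e-06) and not called with FB23-2 (-0.18 ± 0.10, adjusted p = 0.142). Without a stated strand setting, reads of the pair cannot be told apart.

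SRSF8 (ENSG00000263465, chromosome 11, 95067197 to 95071224, plus strand), a relative of SRSF2 that arose as a retrocopy, was among the 2 members expressed lowest per length. Its values were 84.3, 84.0 and 77.3 CPM with DMSO, 47.1, 49.5 and 53.1 with CS2 and 46.5, 39.4 and 56.3 with FB23-2. All 6 treated libraries were below every DMSO library, a 1.64-fold decrease with CS2 (log2 fold change -0.71 ± 0.11, adjusted p = 1.31e-05) and 1.73-fold with FB23-2 (-0.79 ± 0.11, adjusted p = 3.58e-06). Of its 50-base windows, 4.1% also occur in transcripts of other genes.

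SRSF6 and SRSF7 were lower with FB23-2 and not called with CS2, and here the difference between the compounds was itself tested. SRSF6 (ENSG00000124193, chromosome 20, 43457928 to 43464247, plus strand), a factor with a pair of RNA recognition motifs, measured 128.9, 141.4 and 137.0 CPM with DMSO, 135.8, 149.5 and 148.7 with CS2 and 76.5, 66.2 and 96.5 with FB23-2. The CS2 libraries overlapped DMSO, and the FB23-2 libraries lay below both other groups. With FB23-2 the log2 fold change was -0.77 ± 0.10 (adjusted p = 3.89e-06), with CS2 0.09 ± 0.10 (adjusted p = 0.477), and FB23-2 against CS2 gave -0.86 ± 0.10 (adjusted p = 6.16e-07).

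SRSF7 (ENSG00000115875, chromosome 2, 38743599 to 38751494, minus strand), which carries a zinc knuckle beside its RNA recognition motif and like SRSF3 serves as an adaptor for mRNA export, stood at 190.6, 191.3 and 183.0 CPM with DMSO. It was 188.9, 169.6 and 193.8 CPM with CS2 and 134.6, 126.6 and 136.4 with FB23-2. FB23-2 lowered it by a log2 change of -0.51 ± 0.07 (adjusted p = 1.04e-05), while the CS2 value was -0.03 ± 0.07 (adjusted p = 0.743, 95% interval -0.18 to 0.11). The compounds differed by -0.47 ± 0.07 (adjusted p = 1.58e-05).

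SRSF5 (ENSG00000100650, chromosome 14, 69726900 to 69772005, plus strand), a close relative of SRSF4 and SRSF6, was the 1 member called higher. It measured 252.1, 311.5 and 319.1 CPM with DMSO, 258.2, 255.1 and 251.9 with CS2 and 354.0, 320.4 and 361.1 with FB23-2. DMSO replicate 1 sat among the CS2 libraries, and the FB23-2 libraries exceeded all others. The rise with FB23-2 (log2 fold change 0.23 ± 0.08, adjusted p = 0.0271) was lost without DMSO replicate 1 (0.13), FB23-2 replicate 1 (0.22) or FB23-2 replicate 3 (0.21), and after a correction of each library for gene GC content and gene span (0.04). The decrease with CS2 (-0.21 ± 0.08, adjusted p = 0.0484) lay at the threshold and was lost under 11 of 20 alternatives, with an adjusted p between 0.00491 and 0.246 over all 20. Leaving out DMSO replicate 2 (-0.16) or 3 (-0.14), CS2 replicate 1 (-0.21), 2 (-0.20) or 3 (-0.19), or FB23-2 replicate 3 (-0.20) ended the call. The direct difference between the compounds, 0.44 ± 0.08 (adjusted p = 1.73e-04), passed under all 20 and shrank to 0.28 (adjusted p = 0.0078) when corrected for GC content and span. SRSF5 held 12.1% ± 1.2 of the family total with DMSO, 13.3% ± 0.63 with CS2 and 19.5% ± 0.53 with FB23-2. That total was itself lower with FB23-2, at 1770 CPM against 2423 with DMSO. The SRSF5 share exceeded that of SRSF3 in FB23-2 replicates 1 and 2 and not in replicate 3 (18.96% against 19.83%).

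SRSF4 (ENSG00000116350, chromosome 1, 29147743 to 29181987, minus strand), one of the larger SR proteins, with a long arginine and serine tail, measured 113.4, 119.8 and 113.2 CPM with DMSO. It was 92.3, 94.5 and 85.5 CPM with CS2, a log2 fold change of -0.35 ± 0.09 (adjusted p = 0.00249). With FB23-2 it measured 91.3, 111.4 and 89.4 CPM, where replicate 2 came close to DMSO. That difference (-0.25 ± 0.09, adjusted p = 0.0229) was lost without DMSO replicate 2 (-0.22), FB23-2 replicate 1 (-0.19) or FB23-2 replicate 3 (-0.17), and was -0.35 without FB23-2 replicate 2. Corrected for GC content and span it was -0.43 (adjusted p = 3.33e-05).

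SRSF10 (ENSG00000188529, chromosome 1, 23964804 to 23980927, minus strand), a factor that turns into a splicing repressor when dephosphorylated, measured 278.6, 319.3 and 304.6 CPM with DMSO, 264.7, 260.4 and 264.0 with CS2 and 266.1, 258.2 and 261.8 with FB23-2, so both treated groups lay just below the lowest DMSO library. The log2 fold changes of -0.19 ± 0.07 (CS2, adjusted p = 0.0267) and -0.20 ± 0.07 (FB23-2, adjusted p = 0.0221) were each lost when single libraries were left out. Corrected for GC content and span, both were larger, -0.28 with CS2 (adjusted p = 0.00109) and -0.38 with FB23-2 (adjusted p = 5.69e-05). For CS2 the libraries whose removal ended the call were DMSO replicates 2 and 3 (-0.15 and -0.19) and CS2 replicates 1, 2 and 3 (-0.19, -0.18 and -0.19), and no filter on low counts (-0.19) also ended the call. For FB23-2 these were DMSO replicates 2 and 3 (-0.16 and -0.19) and FB23-2 replicate 3 (-0.18).

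SRSF11 (ENSG00000116754, chromosome 1, 70205682 to 70253052, plus strand), an SR-related protein that is less well studied, was called in no comparison. It measured 183.7, 201.5 and 199.4 CPM with DMSO, 178.8, 185.5 and 175.2 with CS2 and 195.8, 201.8 and 188.8 with FB23-2. Its log2 fold change was -0.12 ± 0.07 with CS2 (95% interval -0.25 to 0.02) and 0.005 ± 0.07 with FB23-2 (-0.13 to 0.14). Corrected for GC content and span, the FB23-2 value turned to -0.25 and passed (adjusted p = 0.00185). SRSF11 and SRSF5 have the longest spans of the family, 47.4 and 45.1 kb, against a median of 33.5 kb over 14037 protein-coding genes tested.

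**Figure D3:**
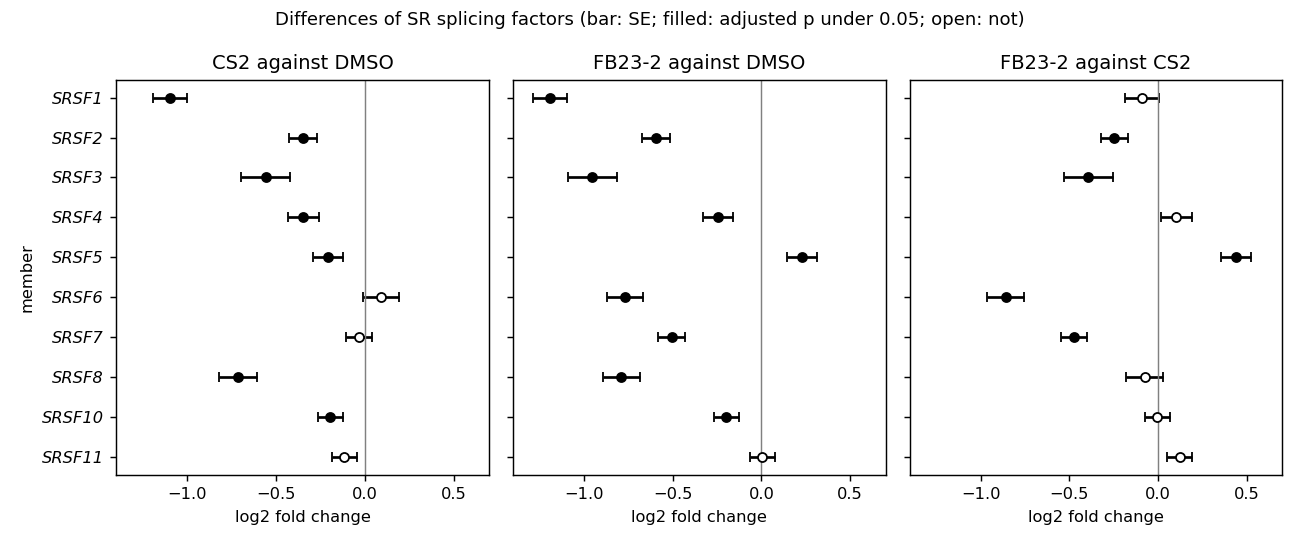
Log2 fold change ± SE of each member in the 3 comparisons, with filled points for an adjusted p under 0.05. SRSF1 is the leftmost point with CS2 (-1.10) and with FB23-2 (-1.19), and SRSF6 is leftmost in FB23-2 against CS2 (-0.86).

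Set directly against CS2, FB23-2 gave 4 members lower and 1 higher, where 30.0% of all tested genes were lower and 29.7% higher. The lower ones were SRSF6 and SRSF7, given above, SRSF3 (-0.39 ± 0.14, adjusted p = 0.0242) and SRSF2 (-0.25 ± 0.08, adjusted p = 0.00947), and the higher one was SRSF5. The SRSF3 difference was lost without CS2 replicate 3 (-0.29), FB23-2 replicate 1 (-0.35) or FB23-2 replicate 2 (-0.25), and on library size alone (-0.38), and that of SRSF2 without CS2 replicate 3 (-0.20). The count was 3 without CS2 replicate 3. For the members not called, the 95% interval of the difference was -0.07 to 0.27 for SRSF4, -0.28 to 0.13 for SRSF8, -0.14 to 0.13 for SRSF10 and -0.02 to 0.26 for SRSF11, so small differences in either direction remain possible.

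Genomic features that the choice of members did not use were also listed. Each of the 10 has at least 1 transcript annotated as a target of nonsense-mediated decay in GENCODE release 29, as do 41.4% of the 14037 protein-coding genes tested, and 7 have a transcript with a retained intron against 55.5%. SRSF7, with 6 of 12 transcripts in the decay class, had the most. Spans ran from 3.3 kb (SRSF2) to 47.4 kb. Among protein-coding genes spanning up to 10 kb, the class of SRSF1, SRSF2, SRSF6, SRSF7 and SRSF8, 18.5% were lower with CS2 and 36.9% with FB23-2, with median log2 fold changes of 0.14 and -0.16. For 10 to 50 kb, the class of the other 5, the shares were 16.8% and 26.9%, with medians of 0.14 and 0.04. The median of short genes was thus above 0 with CS2 and below 0 with FB23-2.

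In the promoter table used here, 12 promoters of 9 members were matched, SRSF2 not among them. The 250 bases before each RefSeq start were searched. TGACG was present in 6 of the 12, for SRSF1, SRSF3, SRSF5, SRSF7 and SRSF11, and in 21.2% of 35116 promoters of that length. CCAAT was present in 3 of the 12, for SRSF3 and SRSF8 (32.0% of all promoters). GGGCGG was in 4, for SRSF4, SRSF6 and SRSF7 (42.6%), and TATAAA in 3, for SRSF3, SRSF7 and SRSF11 (10.7%). CACGTG was in none of the 12 and in 6.3% of all promoters. The promoters of SRSF5 and SRSF10, and the SRSF11 promoter with TATAAA, lie wholly inside the GENCODE span of their gene. Others reach partly into it, so some of these motifs lie after the GENCODE start.

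Some genes outside the family followed a member closely over the 9 libraries, on log2 CPM among 9911 candidates, as a description in which the 3 groups set most of the likeness. SRSF6 was most like CSRP1 (Pearson r 0.994), SRSF2 like USP5 (0.992), SRSF1 like SUSD6 (0.99), SRSF3 like INO80C (0.99) and SRSF7 like BHLHE22 (0.986). SRSF8 was most like PANK2 (0.981), SRSF4 like TTLL5 (0.973), SRSF5 like NBPF11 (0.973), SRSF10 like CWF19L1 (0.959) and SRSF11 like ASXL2 (0.938). CSRP1, a LIM domain protein, was 78.03 ± 3.58 CPM with DMSO, 86.2 ± 0.98 with CS2 and 40.4 ± 8.02 with FB23-2.

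The wider splicing machinery was followed in 5 lists, read against the shares of all genes given above. Of 24 hnRNP and PTB proteins, which often oppose SR proteins on exons, 15 were lower and 1 higher with CS2 (median log2 fold change -0.25), and 18 lower and 2 higher with FB23-2 (median -0.45). The higher ones were HNRNPUL2 with CS2 (0.55 ± 0.07) and HNRNPH3 (0.26 ± 0.08) and PTBP3 (0.31 ± 0.11) with FB23-2. With CS2 the largest changes were in HNRNPA1, which went from 1927 ± 125 to 936 ± 16.5 CPM (-1.04 ± 0.07 in log2, adjusted p = 4.04e-10), PTBP2 (-0.90 ± 0.14), HNRNPK (-0.72 ± 0.08) and HNRNPH3 (-0.62 ± 0.08). With FB23-2 they were in HNRNPM, from 602 ± 9.85 to 186 ± 54.7 CPM (-1.70 ± 0.18, adjusted p = 2.68e-05), HNRNPK (-0.67 ± 0.08), PTBP1 (-0.64 ± 0.07) and HNRNPU (-0.61 ± 0.07). HNRNPUL2 shares 43.2% of its 50-base windows with other genes, chiefly the readthrough gene HNRNPUL2-BSCL2, HNRNPA1 23%, HNRNPU 14.3% and HNRNPK 13.4%, so their counts are uncertain. The genes sharing most with HNRNPA1 are named as its pseudogenes, and with HNRNPU it is COX20.

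Of 32 spliceosome core genes, 6 were higher and 6 lower with CS2 (median 0.01), 18.8% each, beside 24.3% and 25.3% of all genes. Corrected for GC content and span the CS2 split was 4 higher and 11 lower, and the lower genes numbered 3 without DMSO replicate 1, CS2 replicate 1 or CS2 replicate 2. With FB23-2, 27 were lower and 1 was higher (median -0.39), and 25 and 2 after the correction. FB23-2 against CS2 gave 26 lower and 2 higher of these (median -0.42). SF3B3, a subunit of the U2 particle, fell with both compounds, from 305 ± 10.7 CPM to 108 ± 1.01 with CS2 (-1.50 ± 0.07, adjusted p = 4.01e-12) and to 188 ± 9.03 with FB23-2 (-0.70 ± 0.07, adjusted p = 7.73e-08). SNRPA1, another U2 protein, rose with both (0.91 ± 0.08 and 0.75 ± 0.08). SF1 fell alike with CS2 (-0.56 ± 0.08) and FB23-2 (-0.55 ± 0.08). SNRPA fell with CS2 (-0.46 ± 0.09) and was not called with FB23-2 (0.19 ± 0.09). SNRPD3 fell with FB23-2 (-0.71 ± 0.09) and rose with CS2 (0.42 ± 0.09). SNRPE fell with FB23-2 (-0.69 ± 0.16) and was not called with CS2 (-0.05 ± 0.16). SNRPD3 (21.5%), SNRPA1 (11.7%) and SNRPE (11.7%) share windows with other genes.

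**Figure D4:**
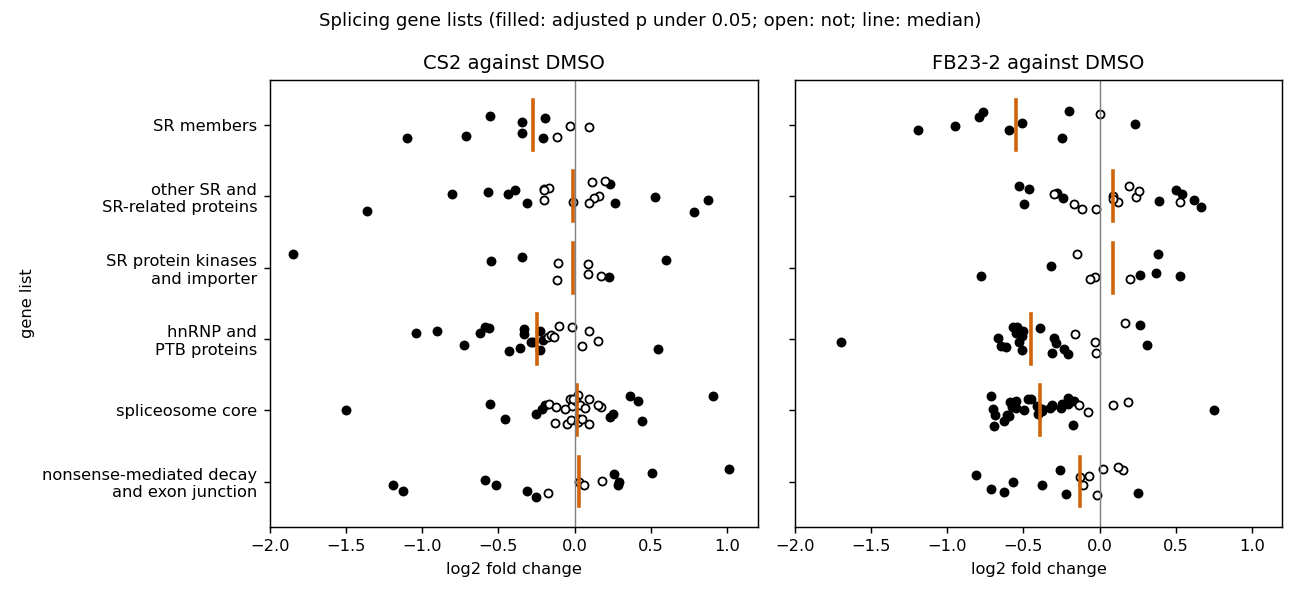
Log2 fold change of the SR members and of the genes of 5 splicing lists with CS2 and with FB23-2 against DMSO, with filled points for an adjusted p under 0.05 and a line at the median. The medians of SR members and hnRNP genes lie below 0 in both panels, and that of the spliceosome core is near 0 with CS2 and at -0.39 with FB23-2.

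The 10 genes for kinases of SR proteins and their importer moved in both directions. With CS2, 2 were higher and 3 lower: CLK4, a kinase that phosphorylates SR tails, rose by 0.60 ± 0.12 on the log2 scale and CLK1 by 0.23 ± 0.09 (adjusted p = 0.0479), while DYRK1A (-0.55 ± 0.07) and the importer TNPO3 (-0.35 ± 0.07) fell. The count of higher genes with CS2 was 1 without a filter, at a mean of at least 1 CPM, with limma-voom and without any 1 DMSO library or CS2 replicate 2 or 3. It was 3 in the fit of only the 2 groups compared, with the replicate block and without FB23-2 replicate 2. With FB23-2, 4 were higher and 2 lower, with CLK4 at 0.53 ± 0.12, SRPK2, which phosphorylates SR proteins in the cytoplasm, at 0.38 ± 0.08, CLK3 at 0.37 ± 0.09, CLK2 at 0.27 ± 0.09 and DYRK1A at -0.32 ± 0.07. SRPK3, named after its values were seen, was also lower with both (-1.85 ± 0.35 and -0.78 ± 0.31) but low, at 3.11 ± 0.73 CPM with DMSO. SRPK3 shares 27.7% of its windows with other genes and CLK3 6.3%. Of all tested genes, 24.3% were higher and 25.3% lower with CS2, and 25.4% and 26.7% with FB23-2. The CS2 counts of this list, 20% and 30%, lie near those shares.

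Among 21 other SR and SR-related proteins, 5 were higher and 6 lower with CS2, and 5 and 5 with FB23-2, beside 24.3% and 25.3%, and 25.4% and 26.7%, of all genes. TRA2B, a partner of SR proteins on exonic enhancers, fell from 386 ± 7.6 to 221 ± 12.9 CPM with CS2 (-0.81 ± 0.08, adjusted p = 1.07e-07), and RSRC1 fell (-1.36 ± 0.14), while PNN (0.78 ± 0.08) and RSRP1 (0.87 ± 0.21) rose. RSRC1 (7.8%) and RSRP1 (10%) share windows with other genes. With FB23-2, TRA2A (-0.53 ± 0.08) and TRA2B (-0.50 ± 0.08) fell, and LUC7L3 (0.66 ± 0.08), ARGLU1 (0.62 ± 0.07) and PNN (0.54 ± 0.08) rose. LUC7L3 rose with CS2 too (0.53 ± 0.08). TRA2A and ARGLU1 were not called with CS2, nor were RSRC1 and RSRP1 with FB23-2.

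Of 15 genes of nonsense-mediated decay and the exon junction complex, the machinery that removes poison-exon transcripts, 5 were higher and 6 lower with CS2 and 1 higher and 7 lower with FB23-2. The latter count was 5, all lower, without DMSO replicate 2. UPF1, the helicase at the centre of the pathway, fell with FB23-2 from 262 ± 11.2 to 150 ± 14.8 CPM (-0.81 ± 0.08, adjusted p = 8.43e-08), with SMG9 (-0.71 ± 0.08), MAGOHB (-0.63 ± 0.11) and RBM8A (-0.57 ± 0.09). With CS2, MAGOHB (-1.19 ± 0.12), SMG9 (-1.13 ± 0.08) and the kinase SMG1 (-0.59 ± 0.07) fell and RBM8A rose (1.01 ± 0.09). UPF1 fell with CS2 too (-0.31 ± 0.08), and SMG1 was not called with FB23-2 (0.12 ± 0.07). SMG5 was the 1 gene called higher with FB23-2 (0.25 ± 0.08). RBM8A (22.5%) and SMG1 (15%) share windows with other genes. The shares of all tested genes were 24.3% higher and 25.3% lower with CS2, and 25.4% and 26.7% with FB23-2.

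Between the compounds, the same lists held genes with large differences, given as FB23-2 minus CS2 in log2. Of the hnRNP genes, HNRNPH3 (0.89 ± 0.08) and HNRNPA1 (0.88 ± 0.07) were higher with FB23-2, and HNRNPM (-1.53 ± 0.18) and HNRNPAB (-0.61 ± 0.07) lower, where HNRNPAB shares 7.6% of its windows with other genes. Of the spliceosome core, SF3B3 (0.80 ± 0.07) and SNRPA (0.64 ± 0.09) were the 2 higher genes, and SNRPD3 (-1.13 ± 0.09) and EFTUD2 (-0.75 ± 0.07) led the lower ones. RSRC1 (1.45 ± 0.14), ARGLU1 (0.63 ± 0.07) and SREK1 (0.51 ± 0.09) were higher and TRA2A lower (-0.66 ± 0.08). SRPK2 (0.49 ± 0.08), TNPO3 (0.29 ± 0.07) and CLK3 (0.28 ± 0.09) were higher, and the kinase PRPF4B (-0.32 ± 0.07) was lower. SMG1 (0.71 ± 0.07) and MAGOHB (0.56 ± 0.12) were higher, and RBM8A (-1.58 ± 0.09) and EIF4A3 (-0.63 ± 0.09), both of the exon junction complex, were lower.

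YTHDC1, the reader that binds SRSF3 and SRSF10, was 96.9 ± 5.69 CPM with DMSO, 97.2 ± 3.01 with CS2 and 103 ± 15.6 with FB23-2, and was not called (adjusted p = 0.973 and 0.419). FTO, the labelled target, was lower with CS2 (-0.52 ± 0.09) and not called with FB23-2 (0.04 ± 0.09, adjusted p = 0.754).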

How the data were processed

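For 9 H69 libraries the authors deposited a table of raw, whole-number gene counts on build hg38 per the submitters' processing notes. Columns were matched to samples by library name, with FB23 read as FB23-2. TRIzol RNA and an mRNA kit were used, per the labels' protocols. No label or header used here names an aligner, counter, annotation or strand setting.

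Genes passing filterByExpr (minimum count 10, minimum total 15) were fitted in R 4.3.3 with edgeR 4.0.16 (TMM, robust quasi-likelihood, all 9 libraries, group means, no covariate), with Benjamini-Hochberg adjustment over 19781 genes. The SE is the fold change over the root of F, and 95% intervals use the normal quantile. The fit was also run on simulated counts in which few genes changed, only with CS2 and with a fixed spread. These data differ from that setting, and the outcome is not given here. Replicates are called biological in the series text, with no detail on cultures, so p-values reflect only the spread of these libraries. No pair within a group was a duplicate (chi-square over its degrees of freedom 4.21 or more).

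Symbols matched 42343 of 62754 IDs. Coordinates, exon lengths, overlaps and windows shared with other genes came from GENCODE release 29 (Python 3.11.15). Members and lists were chosen with earlier results of these data known. All members were named, and of each list the up to 4 called genes with the largest change and at least 10 CPM in a group. FTO, YTHDC1 and the gene most like each member were also named. HNRNPUL2 with CS2, HNRNPH3, PTBP3, CLK2 and SMG5 with FB23-2, and SRPK3, were named after their values were seen. For some list genes named with 1 compound, the results with the other compound were also added after being seen. Alternatives were RLE factors, library size alone, other filters, DESeq2 1.42.0, limma-voom 3.58.1, fits of 2 groups, a replicate block, a GC content and span correction by splines, removal of mitochondrial genes and leaving out each library. The result of 1 further list of cell type markers is not reported here.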

Additional observations from a re-analysis of the deposited data

Results flagged for a closer look

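For 5 members the effects of the compounds against the shared DMSO libraries differed by the direct test of FB23-2 against CS2 (edgeR, adjusted p from 6.16e-07 to 0.0242). In this test 29.7% of all tested genes were higher with FB23-2 and 30.0% lower, so calls were common among all genes. On the log2 scale, FB23-2 minus CS2, the difference was -0.86 for SRSF6 and -0.47 for SRSF7, lower with FB23-2 and not called with CS2. For SRSF5 it was 0.44, with effects on opposite sides of 0 (0.23 with FB23-2 and -0.21 with CS2) that were each near the threshold. For SRSF3 it was -0.39 and for SRSF2 -0.25, both lower with both compounds. All 3 FB23-2 libraries lay outside the range of the CS2 libraries for SRSF2, SRSF5, SRSF6 and SRSF7, and not for SRSF3. They also lay outside it for SRSF11, which was not called. The share of all tested genes that separate in this way was not counted. Doses are not known, so these differences are between the treatments as given.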

How the results depend on the processing

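Of 600 values of members under 20 alternatives, 549 kept direction and side of the threshold, 33 lost the call, 0 gained one in the same direction and 18 changed sign. The calls of SRSF1, SRSF2, SRSF3, SRSF4 and SRSF8 with CS2, of SRSF1, SRSF2, SRSF3, SRSF6, SRSF7 and SRSF8 with FB23-2 and of SRSF5, SRSF6 and SRSF7 between the compounds held under all 20. Members called numbered 5 to 7 with CS2, 6 to 9 with FB23-2 and 3 to 5 between the compounds when single libraries were left out. With the replicate block they were 7, 9 and 5, as without it. Same-numbered deviations correlated at -0.030 to 0.021 between DMSO and either compound and at 0.167, 0.123 and 0.049 between CS2 and FB23-2. Differently numbered libraries of CS2 and FB23-2 gave -0.138 to 0.02, so numbers may pair these weakly, which was not tested. The block without the GC content and span correction changed no call of a member. SRSF11 with FB23-2 was -0.005 without a filter, -0.254 with the GC content and span correction and -0.255 with that and the replicate block, the only one past the threshold in either form. In FB23-2 against CS2, the correction gave -0.031 for SRSF4 (-0.032 with the block) and -0.123 for SRSF11 with and without it. SRSF10 gave 0.008 at a mean of at least 1 CPM and 0.003 without mitochondrial genes. With single libraries left out, the range was -0.064 to 0.027 for SRSF7 with CS2 and -0.037 to 0.045 for SRSF11 with FB23-2. In FB23-2 against CS2 it was -0.182 to 0.013 for SRSF1, -0.006 to 0.171 for SRSF4, -0.208 to 0.043 for SRSF8 and -0.014 to 0.006 for SRSF10. The cause of these changes was not tested. By the longest transcript, 3 of 10 members kept their rank by level. With 3 libraries per group, every call of a member with a change under 0.25 on the log2 scale was lost under at least 1 alternative. The call of SRSF3 between the compounds (-0.39) was also lost under some.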

Other observations

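The remaining classical SR genes, which are not among the 10, were looked at after their values were seen. SRSF9 measured 137 ± 6.19 CPM with DMSO, 119 ± 5.78 with CS2 and 98.8 ± 11.2 with FB23-2, a log2 fold change of -0.20 ± 0.08 (edgeR, adjusted p = 0.0523) and -0.47 ± 0.08 (adjusted p = 1.24e-04). Of its exon bases, 46.2% overlap another gene. SRSF12 was low, at 24.3 ± 0.71, 27.2 ± 1.72 and 27.7 ± 4.53 CPM, and was not called (0.16 ± 0.11 and 0.19 ± 0.11).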
